A study of Mus musculus with 4 samples.

Results

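Nuclei of uninjured mouse heart tissue carrying the Q150X allele of Vegfa were compared with nuclei of uninjured wild-type heart tissue, in 1 single-nucleus RNA library a side. Q150X is a stop-gained allele made with CRISPR/Cas9 to mimic a human VEGFA variant, and the series' design text marks the Q150X animals HO, which it does not spell out. The groups are WT at homeostasis (genotype wild type, no infarction) and Q150X at homeostasis (genotype Q150X, no infarction). The labels used here do not give age, strain or how many hearts went into a library. Nuclei with at least 500 unique molecular identifiers (UMIs, 1 per captured RNA molecule), at least 300 genes and at most 10% mitochondrial UMIs were kept. They came to 10859 nuclei, 4381 WT and 6478 Q150X, of the 28128 nuclei that passed in the 4 libraries of the series; the other 2 libraries were made 3 days after myocardial infarction. With 1 library in each group, no test of the genotype is possible. A difference between the libraries can come from the genotype, the animals, the preparation or the library, which cannot be told apart, and the intervals given are at 95% and cover the counting of molecules, not the spread between hearts.

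VEGF-A is a secreted growth factor that in the heart is made largely by cardiomyocytes and read by receptors on endothelial cells, chiefly VEGFR2, encoded by Kdr. Endothelial cells recruit pericytes and smooth muscle cells with PDGF ligands, and those mural cells wrap capillaries and arterioles and support the vessel wall. The endocardium lines the chambers, lymphatic endothelium drains tissue fluid and answers mainly to VEGF-C, and resident macrophages clear debris and exchange signals with the vessels. These minor cell types are the ones described in detail here.

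The deposited counts held 5868921 UMIs in the kept WT nuclei and 9199078 in the kept Q150X nuclei, with medians of 934 and 994 UMIs per nucleus. The filters removed 9 WT and 66 Q150X nuclei. Vegfa, the targeted gene, stood at 427 CPM in WT and 372 CPM in Q150X (CPM, UMIs scaled to a total of 1000000); a UMI does not tell the 2 alleles apart, so this level checks no label. The Y-linked genes Uty, Ddx3y, Kdm5d and Eif2s3y were read in both libraries, with 1380, 306, 266 and 266 UMIs in WT and 1886, 540, 431 and 467 in Q150X. The 2 libraries shared 39 cell barcodes.

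Nuclei were assigned to cell types by marker genes. A nucleus was called a cardiomyocyte where at least 3% of its UMIs came from cardiomyocyte markers, and otherwise took the type of which it held at least 2 markers and more than of any other type. A second set of markers, not used for this gate, was highest in its own type in both libraries for each of the 5 minor types. Pericyte check markers summed to 3323 CPM in WT and 4261 CPM in Q150X pericytes, endocardial ones to 5802 and 8554 CPM in endocardial nuclei, and smooth muscle ones to 4498 and 3838 CPM in smooth muscle nuclei. Lymphatic check markers stood at 2150 and 1973 CPM in lymphatic endothelial nuclei and macrophage ones at 1967 and 1928 CPM in macrophages.

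**Figure D1:**
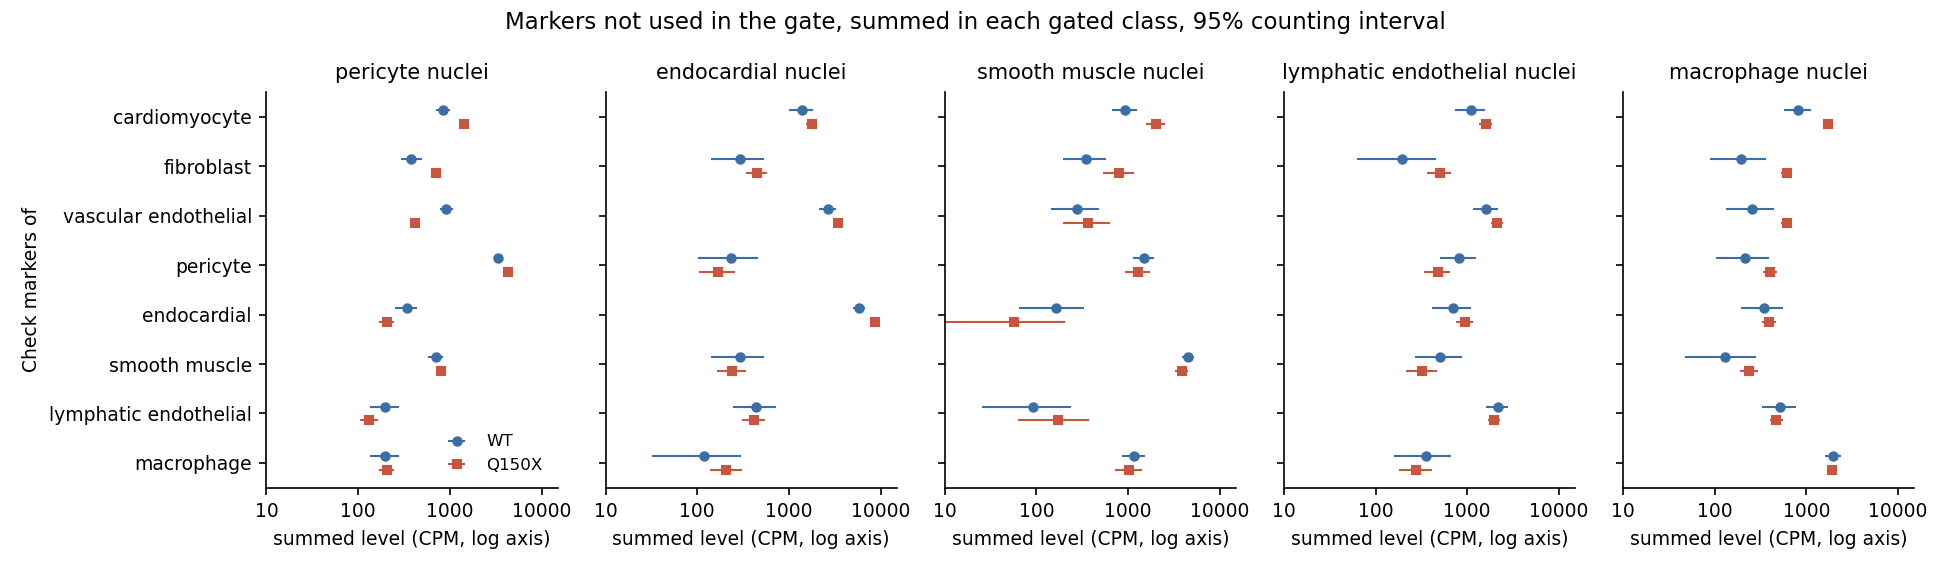
Summed level of the check markers of 8 cell types (rows) in the nuclei gated as each of the 5 minor types (panels), in CPM on a log axis with 95% Poisson intervals; circles are the WT library and squares the Q150X library. In every panel cardiomyocyte check markers lie to the right in Q150X, for example 845 CPM in WT and 1441 CPM in Q150X pericytes, while vascular endothelial check markers lie to the left in pericytes, at 915 and 418 CPM.

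RNA of other cell types was present in each gate, and it differed between the libraries. Cardiomyocyte check markers, none of which served in the minor gates, were at 812 to 1377 CPM in the 5 WT types and at 1441 to 1990 CPM in the 5 Q150X types. Set against their level in cardiomyocyte nuclei, cardiomyocyte markers in the minor types reached 9.78% to 16.6% in WT and 15.6% to 21.6% in Q150X, the larger of the gate and check lists being used. Vascular endothelial check markers went the other way in pericytes, at 915 CPM in WT and 418 CPM in Q150X. Macrophage check markers also summed to 1159 and 1023 CPM in smooth muscle nuclei; in WT, 1 of the 7 markers was detected there, and it was Mertk. The part of these differences in the gene results below was not tested.

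Pericytes and macrophages took a larger share of the Q150X library than of the WT library, and smooth muscle nuclei a smaller one. Pericytes, the mural cells of capillaries, were 164 of 4381 WT nuclei (3.74%, exact interval 3.20 to 4.35%) and 657 of 6478 Q150X nuclei (10.1%, 9.42 to 10.9%), a ratio of 2.71 (2.29 to 3.20). Macrophages were 62 WT nuclei (1.42%, 1.09 to 1.81%) and 336 Q150X nuclei (5.19%, 4.66 to 5.76%), a ratio of 3.67 (2.80 to 4.79). Endocardial nuclei numbered 44 (1.0%) and 138 (2.13%), with a ratio of 2.12 (1.51 to 2.97), and lymphatic endothelial nuclei 28 (0.639%) and 81 (1.3%), with a ratio of 1.96 (1.28 to 3.0). Smooth muscle nuclei were 45 (1.03%) in WT and 31 (0.479%) in Q150X, a ratio of 0.466 (0.295 to 0.735).

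Cardiomyocytes were 39.7% of the WT nuclei and 15.3% of the Q150X nuclei, and fibroblasts 25.8% and 42.3%. Among nuclei other than cardiomyocytes the ratios were smaller for the types that were more frequent in Q150X: 1.93 for pericytes (1.64 to 2.28), 2.61 for macrophages (2.0 to 3.41), 1.51 for endocardial nuclei (1.08 to 2.12) and 1.39 for lymphatic endothelial nuclei (0.910 to 2.14, which includes 1). The smooth muscle ratio was 0.332 (0.211 to 0.523). With at least 1000 UMIs per nucleus the pericyte ratio was 1.29 (0.920 to 1.82) and the endocardial one 2.30 (0.905 to 5.83), and with clusters in place of the gate the endocardial ratio was 1.17 (0.938 to 1.46); these 3 intervals include 1. More nuclei of a type in a library and better recovery of that type from the tissue cannot be told apart here.

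**Figure D2:**
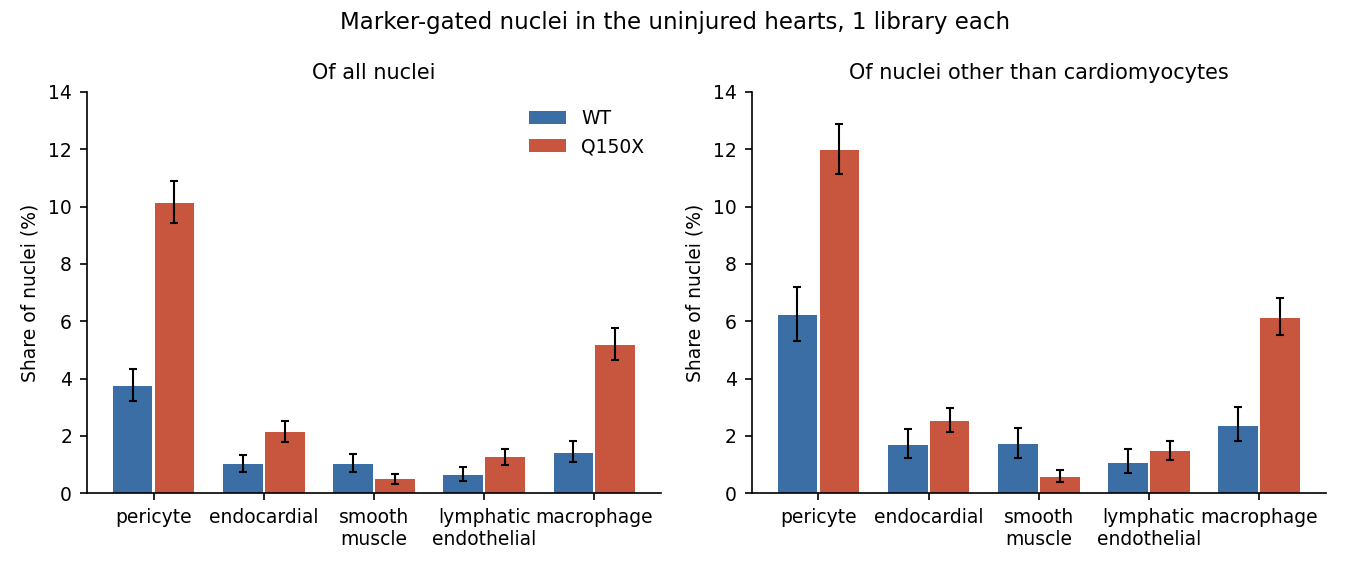
Share of nuclei in each of the 5 minor types, in percent of all kept nuclei (left) and of kept nuclei other than cardiomyocytes (right); bars are the single WT and Q150X libraries and whiskers are exact 95% binomial intervals. Pericytes stand at 3.74% and 10.1% on the left and at 6.21% and 12.0% on the right.

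Summed over all nuclei, matrix and macrophage genes were higher in the Q150X library and genes of cardiomyocyte calcium handling and conduction lower. A gene was counted as past the fold where the whole interval of its ratio, taken as Q150X over WT or as WT over Q150X, lay below 0.8. Genes needed 20 UMIs in the 2 libraries together. Of 14729 such genes, 1974 were higher in Q150X (13.4%) and 429 were lower (2.91%). The median gene had a log2 ratio of 0.28, and with every ratio set relative to that median the counts were 726 higher and 1124 lower. Mgp, a matrix inhibitor of calcification, was at 24.9 CPM in WT and 99.7 CPM in Q150X, a ratio of 4.01 (3.36 to 4.81). Kcnd2, a cardiac potassium channel, was at 2035 CPM and 1002 CPM, a ratio of 0.49 (0.48 to 0.51). Since the shares of cell types differed between the libraries, the comparison was repeated with the shares of 8 cell types held fixed.

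With the Q150X nuclei weighted to the WT make-up, 655 genes were higher in Q150X (4.45%) and 116 lower (0.788%). In this comparison the level of a gene in Q150X is the mean of its levels in 8 cell types and the remaining nuclei, each weighted by its share of the WT UMIs. Of the 1974 genes higher in the plain sum, 506 stayed past the fold (25.6%, which is 77.3% of the 655), and of the 429 lower genes 73 did (17.0%, and 62.9% of the 116). The median log2 ratio of all genes was 0.14, and relative to it 351 genes were higher and 280 lower.

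**Figure D3:**
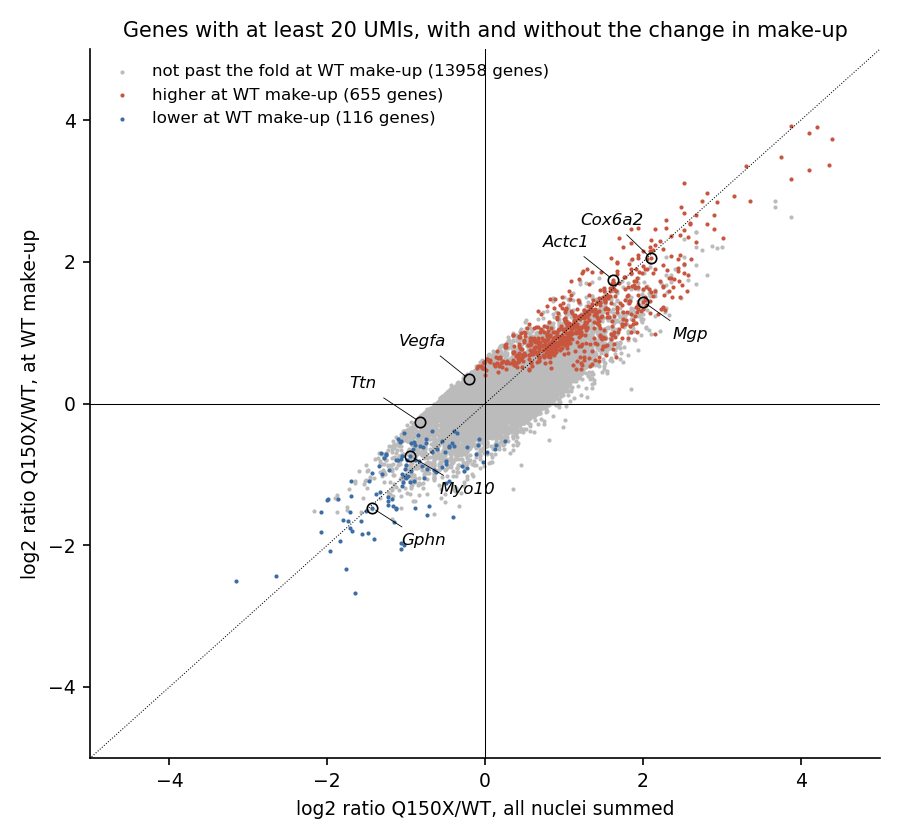
Each point is 1 of the 14729 genes with at least 20 UMIs, by its log2 ratio of Q150X to WT summed over all nuclei (horizontal axis) and at the WT make-up (vertical axis); coloured points are the 655 genes higher and 116 lower at the WT make-up, and circles mark named genes. Ttn, the giant sarcomere spring, lies below 0 on both axes and nearer to 0 at the WT make-up, while Cox6a2 and Gphn lie close to the dotted line of equality.

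The genes furthest above 1 at the WT make-up were mostly small nuclear-coded subunits of the respiratory chain and muscle actins. Ndufa13, a subunit of complex I, was at 6.65 CPM in WT and 32.4 CPM in Q150X, a ratio of 4.88 (3.47 to 6.86). Cox6a2, the muscle form of a cytochrome c oxidase subunit, was at 18.7 and 77.8 CPM, a ratio of 4.15 (3.38 to 5.09). Actc1, cardiac alpha-actin, was at 69.2 and 231 CPM, a ratio of 3.35 (3.00 to 3.73). The others named by the same rule were Uqcr11 of complex III (3.73), Cox5b of complex IV (3.57), Atp5k of the ATP synthase (3.61), Acta1, skeletal alpha-actin (4.72, from 15 and 105 UMIs), and Sorbs2os (3.73), an antisense transcript whose reads may belong to its partner gene, since no source used here gives the strand setting of the counting.

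Actc1 and Cox6a2 were also read outside cardiomyocyte nuclei, while Sorbs2os was read mainly within them, with 76 WT and 300 Q150X UMIs in cardiomyocytes and 3 and 3 in fibroblasts. Actc1 was at 76.4 CPM in cardiomyocytes, 50.3 in fibroblasts, 59.7 in vascular endothelial nuclei, 57.2 in pericytes and 21.4 in macrophages of the WT library. In the Q150X library it was at 253, 153, 244, 222 and 255 CPM in the same order. Cox6a2 was at 14.6 CPM in WT cardiomyocytes and 12.7 CPM in WT pericytes, and at 66.2 and 110 CPM in the same nuclei of Q150X. The part of RNA free in the nuclear suspension in these levels was not tested. Of the 655 higher genes, those with 20 UMIs within a type were above 1 there for 498 of 501 in cardiomyocytes, 496 of 513 in fibroblasts, 169 of 200 in pericytes, 88 of 129 in macrophages, 44 of 46 in endocardial, 18 of 24 in lymphatic endothelial and 11 of 17 in smooth muscle nuclei. Each type entered the sum that chose these genes, cardiomyocytes with 58.2% of the WT UMIs, so these counts are a description only. Of all genes with 20 UMIs within a type, 70.8% were above 1 in cardiomyocytes, 60.4% in fibroblasts, 54.8% in pericytes and 51.2% in macrophages. The share was 52.3% in endocardial, 50.5% in lymphatic endothelial and 45.8% in smooth muscle nuclei.

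The genes furthest below 1 at the WT make-up came from several cell types. Ikzf3, a lymphocyte transcription factor, was at 5.96 CPM in WT and 1.72 in Q150X (35 and 17 UMIs), a ratio of 0.29 (0.16 to 0.53). Themis, a T-cell signalling protein that served as a T or NK cell gate marker, was at 8.69 and 3.47 CPM, a ratio of 0.40 (0.25 to 0.63). Nuclei gated as T or NK cells were 9 in WT and 12 in Q150X, and B cells 18 and 10. These lymphocytes were among the remaining nuclei, so their shares were not held fixed in this comparison. Myo10, a myosin of filopodia, was at 274 and 164 CPM, a ratio of 0.60 (0.55 to 0.65); in vascular endothelial nuclei, which held 964 of its 1608 WT UMIs, it was at 1693 CPM in WT and 708 CPM in Q150X. Tcim (0.52), Rp1 (0.51), Ush1c (0.47) and Ano3 (0.46) were also among them. Rp1 and Ush1c lay mostly in cardiomyocytes, with 219 of 232 and 144 of 147 WT UMIs.

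Described by gene groups, most nuclear-coded genes of the respiratory chain were higher at the WT make-up. Of 34 such genes of oxidative phosphorylation with 20 UMIs, 34 were above 1 and 27 past the fold upwards, with none past it downwards, and their median log2 ratio was 1.10 against 0.14 for all genes. All 80 cytoplasmic ribosomal protein genes lay above 1 with a median of 0.63, and 28 of them were past the fold. Of all genes 4.45% were past it upwards in this comparison. Of 20 genes of cardiomyocyte contraction 13 were higher and none lower (median 0.54), and of 19 calcium and conduction genes none was higher and 2 were lower: Kcnd2, a potassium channel (2035 CPM in WT and 1528 in Q150X, ratio 0.75), and Fgf12, a sodium channel partner (14.1 and 7.85 CPM, ratio 0.55). Fatty acid oxidation had 6 of 28 genes higher, among them Fabp3, the heart fatty acid carrier, at 73.3 and 134 CPM (ratio 1.82).

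Matrix, complement and resident macrophage groups had fewer higher genes when the make-up was held fixed, and the interferon and monocyte groups had none. The share of all genes that were higher fell too, from 13.4% in the plain sum to 4.45% at the WT make-up. Of 25 matrix genes, 23 were past the fold in the plain sum and 7 at the WT make-up, where Mgp was at 24.9 and 67.4 CPM (ratio 2.71) and Bgn, the proteoglycan biglycan, at 16.02 and 44.0 CPM (ratio 2.75). Of 20 complement and lysosome genes 13 were higher in the plain sum and 8 at the WT make-up; C3, the central complement protein, was at 7.67 and 23.1 CPM in the latter (ratio 3.02, 2.20 to 4.15). Resident macrophage and scavenger genes went from 13 of 17 higher to 5 of 17, with the scavenger receptor Stab1 at 21.5 and 41.2 CPM (ratio 1.92). Interferon response genes went from 4 of 20 higher to 0 of 20, recruited monocyte genes from 2 of 8 to 0 of 8, with 1 lower in each, and MHC class II genes from 3 of 7 to 1 of 7. Haemoglobin genes, a sign of blood in the preparation, were higher for 5 of 5 members at the WT make-up, Hba-a1 being at 98.7 and 204 CPM. Among nucleus-retained RNAs, Neat1 was lower, at 2712 and 2082 CPM (ratio 0.77), and Malat1 had a ratio of 0.84, which did not pass.

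**Figure D4:**
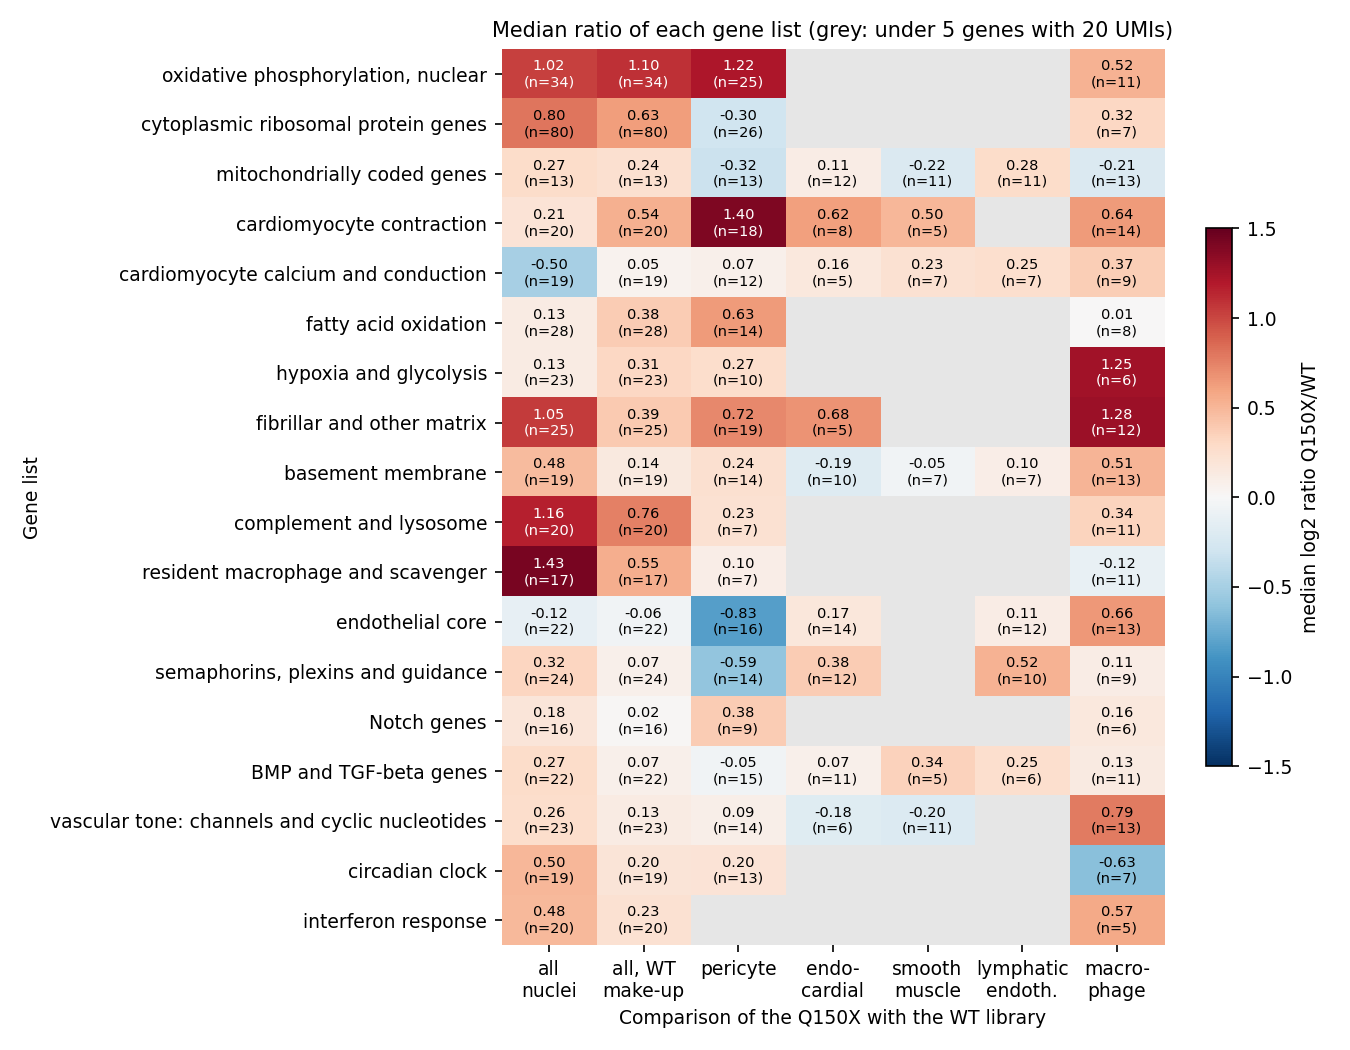
Median log2 ratio of Q150X to WT for 18 gene lists (rows) in the 7 comparisons (columns), with the number of members that had at least 20 UMIs; red is higher in Q150X, blue is lower, and cells with fewer than 5 such genes are grey. Oxidative phosphorylation is at 1.10 at the WT make-up and at 1.22 in pericytes, and the endothelial core list at -0.83 in pericytes is the lowest value shown.

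Of 10 VEGF ligands and receptors, Vegfb and Vegfc were past the fold upwards at the WT make-up and none was past it downwards. The median log2 ratio of the 10 was 0.28 against 0.14 for all genes, of which 4.45% were higher. Vegfa was at 427 CPM in WT and 541 CPM in Q150X at the WT make-up, a ratio of 1.27 (1.2 to 1.33), while in the plain sum its ratio was 0.87 (0.83 to 0.92); neither is past the fold, and the side of 1 differs between the 2 ways of summing. Most of its UMIs were in cardiomyocytes, 2379 of 2507 in WT and 3019 of 3426 in Q150X, where it stood at 696 and 881 CPM. Vegfb, a ligand of VEGFR1, was at 9.88 and 28.4 CPM at the WT make-up, a ratio of 2.88 (2.14 to 3.86). Vegfc, the lymphatic ligand, was at 66.1 and 108 CPM, a ratio of 1.64 (1.45 to 1.85). Kdr was at 74.1 and 59.5 CPM, a ratio of 0.80 (0.70 to 0.92), and Flt1, encoding VEGFR1, at 297 and 347 CPM, a ratio of 1.17 (1.10 to 1.247); neither passed the fold, although Kdr did in the plain sum (ratio 0.70).

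In the PDGF group Pdgfrb, the receptor of mural cells, was at 71.1 and 105 CPM (ratio 1.48, 1.32 to 1.65) and the ligand gene Pdgfd at 634 and 433 CPM (ratio 0.68, 0.65 to 0.72), both at the WT make-up. Of 6 PDGF genes 1 was past the fold upwards and 1 downwards. Pdgfrb served as a pericyte gate marker, so it helped choose the nuclei weighted as pericytes. Hey1, a Notch target, was lower at 6.82 and 2.88 CPM, a ratio of 0.42 (0.24 to 0.73), and none of the other 15 Notch genes was past the fold. Of 22 BMP and TGF-beta genes 1, the ligand gene Tgfb3, was higher (ratio 1.62) and 1, the BMP target Id1, lower (21.1 and 11.2 CPM, ratio 0.53). Of all genes 4.45% were higher and 0.788% lower at the WT make-up, and such single genes do not describe their groups. The endothelial core list had 0 of 22 genes past the fold.

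The same few genes were past the fold in several of the 5 minor types. Of 409 genes counted in each of the 5, and of genes counted in fewer, 8 were past the fold on 1 side in at least 3 types, 3 higher and 5 lower. Gphn, the gephyrin gene, was lower in 5 of 5: it was at 7548 CPM in WT and 1658 in Q150X pericytes (ratio 0.22) and at 9577 and 1906 CPM in macrophages (ratio 0.20). Cmss1 was higher in 5 of 5, with 1436 and 3040 CPM in pericytes (ratio 2.12) and 1182 and 4861 CPM in smooth muscle nuclei (ratio 4.11). Lars2, a mitochondrial tRNA synthetase gene, was lower in pericytes, lymphatic endothelial nuclei and macrophages, and Gm19951, a gene model, was higher in the 4 types where it was counted. As background, Lars2 overlaps ribosomal RNA sequence, and Gphn and Cmss1 were listed as genes often read together with it; whether such reads make up these counts was not tested.

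Ttn, a cardiomyocyte gate marker, was higher in 5 of 5 minor types, with ratios of 2.11 in pericytes, 1.86 in endocardial nuclei and 2.89 in smooth muscle. It was at 3.25 in lymphatic endothelial nuclei and 1.62 in macrophages, beside the higher cardiomyocyte markers in the Q150X gates given above. The 3% limit of the gate also bounds its level in these types. The mitochondrially coded genes mt-Nd5 and mt-Nd4l were lower in 4 of 5 types each, and mt-Nd5 was at 1207 CPM in WT and 477 in Q150X pericytes. Hbb-bs, a beta-globin, was past the fold downwards in endocardial and lymphatic endothelial nuclei and in macrophages, where it was at 876 and 249 CPM, and upwards in pericytes, at 489 and 1346 CPM.

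Pericytes showed the largest number of genes past the fold among the minor types, but also had the most genes counted. Lower genes were ahead of higher ones. Of 5337 genes with 20 UMIs, 76 were higher in Q150X (1.42%) and 142 lower (2.66%), at 157400 UMIs in WT and 580836 in Q150X. In smooth muscle the shares were 2.16% and 2.16% of 602 genes. The higher pericyte genes named by rule included muscle and energy transcripts. Cox6a2 was at 12.7 CPM in WT (2 UMIs) and 110 CPM in Q150X (64 UMIs), a ratio of 8.67 (2.30 to 73.1); Slc25a4, the ADP/ATP carrier of muscle, was at 38.1 and 182 CPM (ratio 4.79) and Actc1 at 57.2 and 222 CPM (ratio 3.88). In nuclei other than pericytes Cox6a2 stood at 18.9 and 78.3 CPM and Actc1 at 69.5 and 213 CPM, close to the pericyte levels.

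Mdga2 and Grik2 were higher in Q150X pericytes and less abundant in the other nuclei. Mdga2, an adhesion protein of synapses, was at 781 CPM in WT and 1432 CPM in Q150X pericytes, a ratio of 1.83 (1.52 to 2.23), and at 23.1 and 46.9 CPM in the other nuclei. Its UMIs came from 57 WT and 312 Q150X pericyte nuclei. Grik2, a kainate receptor subunit, was at 95.3 and 246 CPM, a ratio of 2.58 (1.51 to 4.74), and at 61.1 and 87.0 CPM in the other nuclei. Cog7, of the Golgi tethering complex, was at 12.7 and 87.8 CPM, a ratio of 6.91 (1.82 to 58.6) that rests on 2 WT UMIs.

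The lower pericyte genes included a growth factor and enzymes. Pdgfd was at 737 CPM in WT and 201 CPM in Q150X, a ratio of 0.27 (0.21 to 0.36), and Mgll, a lipase that ends endocannabinoid signalling, at 400 and 102 CPM (ratio 0.25, 0.17 to 0.37). St6galnac3, a sialyltransferase, was at 330 and 60.3 CPM (ratio 0.18) and Thsd4, a microfibril protein, at 254 and 48.2 CPM (ratio 0.19). In nuclei other than pericytes these genes were lower in Q150X too, Pdgfd at 631 and 350 CPM and Mgll at 280 and 186 CPM. St6galnac3 stood there at 228 and 139 CPM and Thsd4 at 157 and 126 CPM. Single nuclei weighed in some of these: 29 of the 56 WT UMIs of Nebl, a Z-disc protein (ratio 0.077, 0.041 to 0.14), and 35 of the 100 of Kcnab1, a potassium channel subunit (ratio 0.17, 0.12 to 0.23), lay in 1 nucleus each. The richest WT nucleus held 18 of 52 UMIs of St6galnac3, 11 of 40 of Thsd4 and 23 of 116 of Pdgfd. Without the richest nucleus of each library Nebl was at a ratio of 0.13 and Kcnab1 at 0.18, both past the fold. Kcnab1 was more abundant in smooth muscle nuclei, at 4822 and 4463 CPM.

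Gene groups in pericytes differed in direction. Of 26 cytoplasmic ribosomal protein genes 10 were above 1 and 16 below, with a median log2 ratio of -0.30, and 1 was past the fold upwards. Of 18 cardiomyocyte contraction genes 17 were above 1 and 11 past the fold upwards (median log2 ratio 1.40), Myl3, a myosin light chain, being at 12.7 and 169 CPM (ratio 13.3, 3.58 to 111) on 2 WT UMIs; of 25 oxidative phosphorylation genes 22 were above 1 and 4 past the fold. Cardiomyocyte check markers moved the same way, from 845 to 1441 CPM. They are muscle genes too, Actc1 among them, so this is not a separate observation. Of 16 endothelial core genes 15 were below 1 and 8 were past the fold downwards, with a median log2 ratio of -0.83 against 0.06 for all genes; Erg, an endothelial transcription factor, was at 114 and 20.7 CPM (ratio 0.18) and Ldb2 at 623 and 217 CPM (ratio 0.35). Vascular endothelial check markers moved the same way, from 915 to 418 CPM. They are endothelial genes too, such as Kdr and Pecam1, so this is not a separate observation. Of 15 smooth muscle contraction genes 3 were lower, among them Acta2 at 121 and 32.7 CPM (ratio 0.27) and Myh11 at 254 and 70.6 CPM (ratio 0.28). Acta2 and Myh11 were smooth muscle gate markers, so the gate itself limited their level in pericyte nuclei. Tpm1, which cardiomyocytes share, was the 1 higher gene, at a ratio of 1.95, while the smooth muscle check list was at 699 and 797 CPM. Of 14 guidance genes 4 were lower, among them Plxna4 at 191 and 49.9 CPM (ratio 0.26) and Sema6a at 184 and 58.5 CPM (ratio 0.32).

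Among pericyte genes of vessel signalling, Angpt1, the ligand that steadies endothelium through Tie2, had 0 WT UMIs and 24 in Q150X. With the WT class set to a floor of 3 UMIs it was 2.17-fold higher, a value that is not a lower bound. Vegfc was lower, at 133 and 56.8 CPM (ratio 0.43, 0.24 to 0.77). Bgn also had 0 WT UMIs and 44 in Q150X, 3.97-fold higher against the same floor. Col4a4, a basement membrane collagen, was at 44.5 and 143 CPM (ratio 3.21, 1.49 to 8.24). Pde8b, a cyclic AMP phosphodiesterase, was at 1055 and 1661 CPM (ratio 1.58, 1.33 to 1.87). Vegfa had 4 and 30 UMIs in pericytes, a ratio of 2.03 (0.72 to 7.94) that includes 1.

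**Figure D5:**
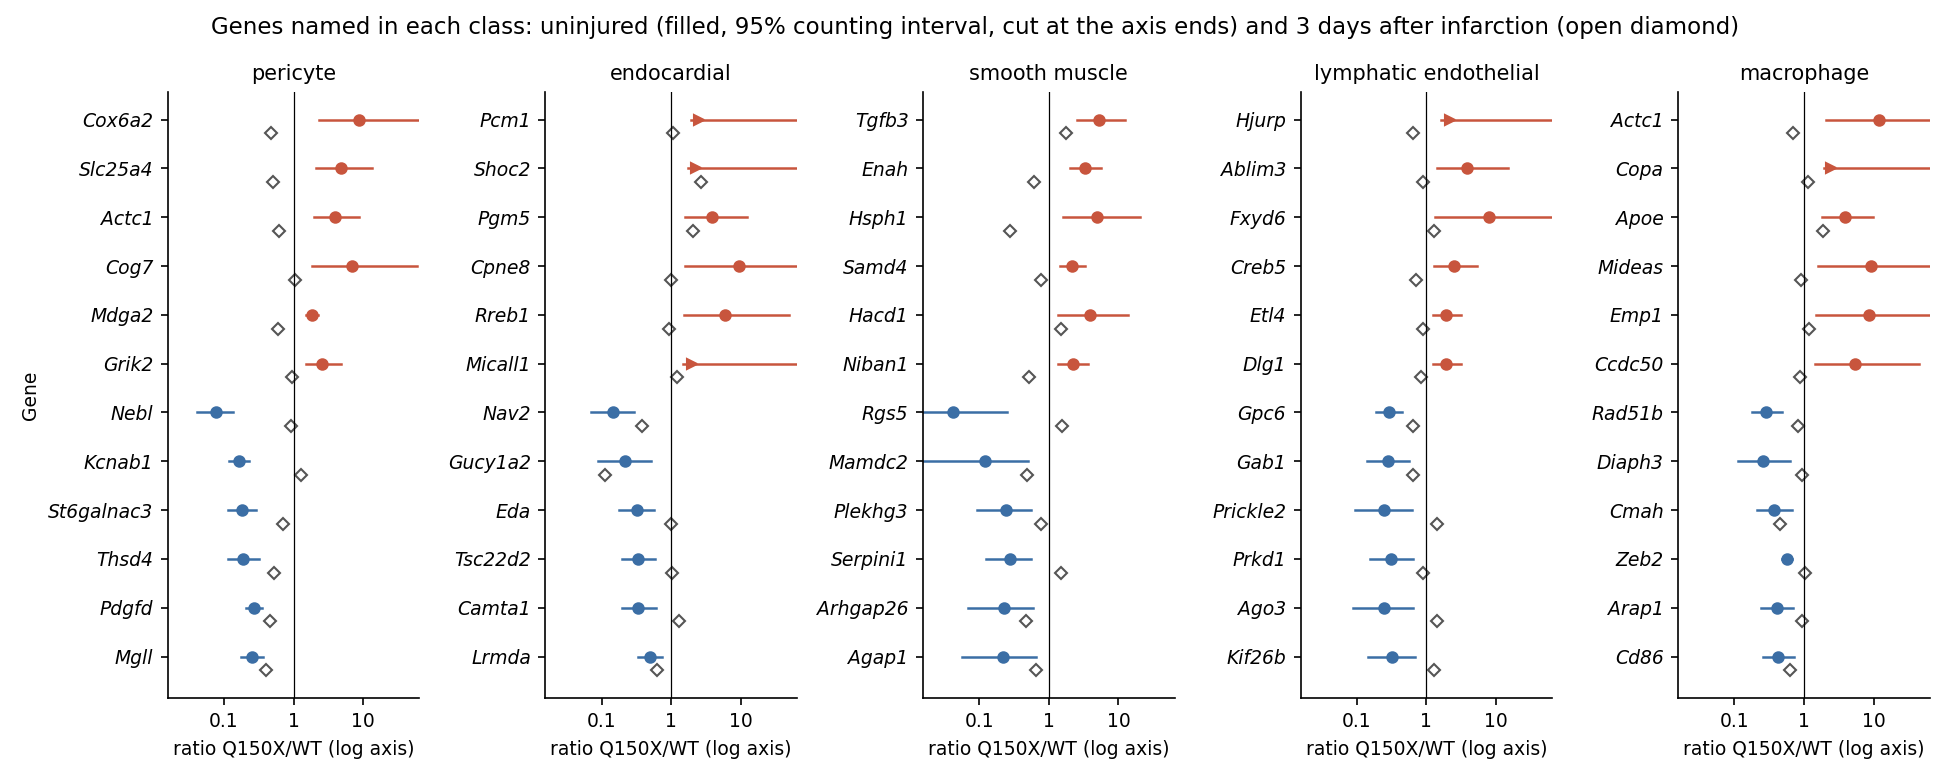
Ratio of Q150X to WT for the 12 genes named by rule in each minor type, on a log axis. Filled circles with lines are the uninjured libraries with 95% counting intervals. Triangles are ratios against a floor of 3 UMIs where WT had 0 UMIs, and open diamonds are the same ratio 3 days after infarction. In pericytes 1 of the 6 higher genes and 5 of the 6 lower genes lie on the same side of 1 after infarction.

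Endocardial nuclei differed in 24 genes upwards (1.46%) and 16 downwards (0.974%) of 1643 with 20 UMIs. The WT class held 44 nuclei and 34129 UMIs and the Q150X class 138 nuclei and 124965 UMIs, so a gene needed a large difference to be counted. Pgm5, a muscle and junction protein of the phosphoglucomutase family, was at 147 CPM in WT and 568 CPM in Q150X, a ratio of 3.88 (1.59 to 12.3), with UMIs in 5 and 41 nuclei. Rreb1, a zinc finger transcription factor, was at 58.6 and 344 CPM (ratio 5.87, 1.53 to 50.04) and Cpne8, a copine, at 29.3 and 272 CPM (ratio 9.29, 1.56 to 377), on 2 and 1 WT UMIs. Pcm1, Shoc2 and Micall1 had 0 WT UMIs and 28, 25 and 22 in Q150X. Against the floor of 3 UMIs they were 2.55-, 2.28- and 2.0-fold higher, values that are not lower bounds.

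The 6 lower endocardial genes named by rule rested on 14 to 42 WT UMIs. Eda, the ectodysplasin ligand, was at 703 and 224 CPM (ratio 0.32, 0.18 to 0.57), Tsc22d2 at 762 and 256 CPM (ratio 0.34) and Camta1, a transcription factor, at 733 and 248 CPM (ratio 0.34). Gucy1a2, a subunit of the nitric oxide receptor, was at 410 and 88.0 CPM (ratio 0.21), and Lrmda at 1231 and 608 CPM (ratio 0.49). Nav2 was at 762 and 112 CPM, but 24 of its 26 WT UMIs were in 1 nucleus, and without the richest nucleus of each library its ratio was 1.43 (0.31 to 13.2).

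Of 7 endocardial signalling genes none was past the fold, with 5 above 1 and a median log2 ratio of 0.30; Gata6, a cardiac transcription factor, was at 147 and 384 CPM (ratio 2.62, 1.05 to 8.44). Of 4 VEGF family genes none was past the fold. Nrp1, a VEGF coreceptor, was at 469 and 800 CPM (ratio 1.71, 1.0 to 3.10). Flt1, a vascular endothelial gate marker, was at 557 and 656 CPM (ratio 1.18, 0.71 to 2.06). Pdgfc and the Notch effector Rbpj had 0 WT UMIs and 21 and 22 in Q150X, 1.91- and 2.0-fold higher against the floor of 3 UMIs. Eln, the elastin gene, was at 645 and 1312 CPM (ratio 2.04, 1.30 to 3.34). Zbtb16, a glucocorticoid-responsive gene, was lower at 3633 and 2217 CPM (ratio 0.61, 0.49 to 0.76) and Malat1 at 89074 and 60041 CPM (ratio 0.67).

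Smooth muscle was the smallest Q150X class, with 31 nuclei and 35176 UMIs against 45 nuclei and 43132 UMIs in WT, and 602 genes reached 20 UMIs. Past the fold were 13 genes upwards (2.16%) and 13 downwards (2.16%). Tgfb3, a TGF-beta ligand, was at 209 CPM in WT and 1109 CPM in Q150X, a ratio of 5.31 (2.53 to 12.5), from 7 and 10 nuclei. Enah, an actin regulator, was at 533 and 1763 CPM (ratio 3.31, 2.02 to 5.59) and Samd4 at 881 and 1905 CPM (ratio 2.16, 1.43 to 3.31). Hsph1, a heat shock protein (ratio 4.90), Hacd1 (3.92) and Niban1 (2.23) were no longer past the fold without the richest nucleus of each library, with intervals of 0.79 to 19.4, 1.05 to 15.9 and 1.01 to 3.19.

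Lower smooth muscle genes included a pericyte marker. Rgs5, a regulator of G-protein signalling that served as a pericyte gate marker, was at 672 CPM in WT and 28.4 CPM in Q150X (29 and 1 UMIs), a ratio of 0.042 (0.0010 to 0.255), with 18 of the 29 WT UMIs in 1 nucleus. Without the richest nucleus of each library it had 11 WT and 0 Q150X UMIs, a ratio of 0.32 against the floor of 3 UMIs (upper bound 0.47), still past the fold. Pericyte check markers there stood at 1484 and 1279 CPM. Serpini1, neuroserpin, was at 1020 and 284 CPM (ratio 0.28, 0.13 to 0.56), Plekhg3 at 811 and 199 CPM (ratio 0.25) and Mamdc2 at 464 and 56.9 CPM (ratio 0.12). Arhgap26 and Agap1, which act on small GTPases, were at ratios of 0.23 and 0.22.

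Of 20 smooth muscle contraction genes only 5 were counted in smooth muscle nuclei, the others being markers of the class or below 20 UMIs. None of the 5 was past the fold. With 2.16% of all 602 genes past it on each side, 5 genes are too few to describe the contractile programme. All 5 of the counted contraction genes that were not gate or check markers lay above 1, with a median log2 ratio of 0.27 against -0.07 for all genes, and Synpo2 was at 2388 and 2843 CPM (ratio 1.19, 0.89 to 1.58). Of 11 vascular tone genes 8 were below 1 and 1, the calcium channel gene Cacna1d, was lower at 394 and 85.3 CPM (ratio 0.22, 0.041 to 0.75). Kcnma1, the large-conductance potassium channel, was at 1206 and 682 CPM (ratio 0.57, 0.33 to 0.93), which did not pass. Epas1, a hypoxia-inducible factor, was lower at 626 and 199 CPM (ratio 0.32, 0.12 to 0.75).

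Lymphatic endothelial nuclei gave 7 genes past the fold upwards (0.579%) and 21 downwards (1.74%) of 1209, from 28 WT and 81 Q150X nuclei. Ablim3, an actin-binding protein, was at 156 CPM in WT and 604 in Q150X (ratio 3.86, 1.42 to 14.7), and Creb5, a transcription factor, at 391 and 963 CPM (ratio 2.46, 1.27 to 5.33). Fxyd6, a regulator of the sodium pump, was at 39.1 and 313 CPM (ratio 8.02, 1.32 to 328) on 1 WT UMI. Etl4 (ratio 1.94, 1.24 to 3.15) and Dlg1, a junctional scaffold (1.93, 1.23 to 3.18), were named by the rule but were not past the fold. Hjurp had 0 WT and 22 Q150X UMIs, 2.18-fold higher against the floor of 3 UMIs (lower bound 1.63).

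Among lower lymphatic genes Gpc6, a glypican, was at 1916 and 557 CPM (ratio 0.29, 0.19 to 0.44), although all other nuclei moved the opposite way, at 1829 and 3174 CPM; 13 of its 49 WT UMIs were in 1 nucleus. Gab1, a receptor adaptor, was at 743 and 209 CPM (ratio 0.28), Prkd1, protein kinase D, at 704 and 221 CPM (ratio 0.31) and Kif26b at 586 and 186 CPM (ratio 0.32). Prickle2, of planar polarity, and Ago3, of RNA silencing, were at ratios of 0.25 and 0.24.

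Of 5 counted identity and junction genes outside the marker lists none was past the fold, with a median log2 ratio of 0.08; Itga9, the integrin of lymphatic valves, was at 1798 and 1312 CPM (ratio 0.73, 0.51 to 1.05) and Stab1 at 195 and 371 CPM (ratio 1.90, 0.73 to 6.25). Sema6a was at 1368 and 2298 CPM (ratio 1.68, 1.17 to 2.48), opposite in direction to pericytes. Lama2, a basement membrane chain, was lower at 1016 and 476 CPM (ratio 0.47, 0.28 to 0.80) and Zbtb16 at 2150.3 and 1126 CPM (ratio 0.52, 0.37 to 0.74). Kdr had 3 and 20 UMIs (ratio 1.98, 0.59 to 10.4).

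Macrophages held 36 genes past the fold upwards (0.949%) and 33 downwards (0.87%) of 3795, from 62 WT and 336 Q150X nuclei; relative to the median gene, the counts were 26 and 50. Apoe, a lipid carrier of macrophages, was at 150 CPM in WT and 577 CPM in Q150X, a ratio of 3.86 (1.84 to 9.72), with UMIs in 5 and 123 nuclei. In all other nuclei it was at 16.3 and 55.9 CPM. Emp1, a membrane protein, was at 21.4 and 181 CPM (ratio 8.47, 1.46 to 340.2), and Ccdc50 at 42.8 and 227 CPM (ratio 5.31, 1.42 to 44.7), both on 1 or 2 WT UMIs. Copa, of the COPI coat, had 0 WT and 51 Q150X UMIs, 2.44-fold higher against the floor of 3 UMIs (lower bound 1.91). Actc1 was at 21.4 and 255 CPM (ratio 11.9, 2.08 to 476), also on 1 WT UMI, and Mideas was at a ratio of 9.05 on 1 WT UMI.

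Lower macrophage genes had more counts behind them. Zeb2, a transcription factor of tissue macrophages, was at 3890 CPM in WT and 2222 CPM in Q150X, a ratio of 0.57 (0.48 to 0.68), with UMIs in 52 of 62 and 251 of 336 nuclei. Cd86, a costimulatory molecule, was at 470 and 196 CPM (ratio 0.42, 0.25 to 0.71), Cmah, which makes a sialic acid, at 385 and 141 CPM (ratio 0.37) and Arap1 at 449 and 181 CPM (ratio 0.40). Rad51b, of DNA repair, was at 556 and 160 CPM (ratio 0.29, 0.18 to 0.48), and the cycling genes Mki67 and Diaph3 were at 171 and 46.0 CPM and 214 and 55.3 CPM, on 8 and 10 WT UMIs. Without the richest nucleus of each library Cd86 (0.53, 0.30 to 0.99) and Diaph3 (0.35, 0.13 to 1.09) were not past the fold.

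Of 11 resident and scavenger genes 5 were above 1 and 6 below, none past the fold, and Stab1 was at 770 and 829 CPM (ratio 1.08, 0.76 to 1.57). Of 11 complement and lysosome genes 8 were above 1 and none past the fold, and 4 of 5 MHC class II genes were below 1, H2-Aa being at 150 and 70.6 CPM (ratio 0.47, 0.20 to 1.30). Of genes typical of other cells, 12 of 12 matrix genes lay above 1 with a median log2 ratio of 1.28 against 0.09 for all genes. Among 14 contraction genes 4 were past the fold. Dcn, decorin, was at 21.4 and 230 CPM (ratio 10.8, 1.87 to 431). It served as a fibroblast gate marker, so the gate itself limited its level in macrophage nuclei. Fibroblast check markers there stood at 192 and 614 CPM, and vascular endothelial ones at 257 and 614 CPM. Rora, a nuclear receptor of the clock, was at 705 and 1651 CPM (ratio 2.34, 1.65 to 3.44). It was the 1 clock gene past the fold of 7 counted, and 5 of the 7 were below 1, with a median log2 ratio of -0.63. Prkg1, the cyclic GMP kinase, was at 534 and 1185 CPM (ratio 2.22). Prkg1 is abundant in mural cells, at 7897 and 8553.2 CPM in pericytes.

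The pair of libraries made 3 days after infarction, with 9149 WT and 8120 Q150X nuclei, gave the same contrast in other tissue. Of the 655 genes higher at the WT make-up without injury, 411 of 652 counted (63.0%) were above 1 there, where 58.2% of all 19188 genes were; of the 116 lower genes 81 of 113 (71.7%) were below 1, against 41.8% of all genes. Within pericytes 28 of 72 higher genes (38.9%) and 97 of 141 lower genes (68.8%) kept their side, against 56.8% and 43.2% of all genes. In macrophages 13 of 36 higher genes (36.1%) and 19 of 33 lower genes (57.6%) did, against 54.4% and 45.6%. The smaller types gave 13 of 22 higher and 8 of 14 lower genes on the same side in endocardial nuclei (47.7% and 52.3% of all genes), 5 of 12 and 9 of 13 in smooth muscle (50.6% and 49.4%), and 2 of 7 and 12 of 19 in lymphatic endothelial nuclei (52.1% and 47.9%).

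Of the genes named by rule, 3 of 8 higher and 5 of 8 lower at the WT make-up were on the same side of 1 after infarction. In pericytes 1 of 6 higher and 5 of 6 lower genes were, in endocardial nuclei 4 and 4 of 6, in smooth muscle 2 and 4, in lymphatic endothelial nuclei 1 and 3, and in macrophages 3 and 5. Among the higher respiratory chain genes, Ndufa13 was at 0.96 (0.860 to 1.07) at the make-up of the WT infarct library, Cox5b at 0.96 (0.875 to 1.05), Atp5k at 0.87 (0.754 to 0.999) and Uqcr11 at 0.74 (0.663 to 0.825). Among genes that kept their side, Pdgfd in pericytes was at a ratio of 0.46 (0.36 to 0.59) after infarction and Mgll at 0.40 (0.28 to 0.57), both past the fold in the same direction, Apoe in macrophages was at 1.85 (1.74 to 1.98) and Cmah at 0.46 (0.37 to 0.56). Myo10 at the make-up of the WT infarct library was at 0.81 (0.78 to 0.84), Vegfa at 1.18 (1.14 to 1.24), and Rp1 at 0.39 (0.28 to 0.54). These values describe other libraries at another state and do not test the difference without injury.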

How the data were processed

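Nuclei of whole hearts were profiled with the 10x Chromium Single Cell 5′ v2 kit on a NovaSeq6000, per the labels' protocols. The authors deposited raw UMI counts per gene and nucleus for each library; the matrices were written by Cell Ranger 7.1.0, per the file headers, and build GRCm39 and Scanpy are named, with no role, in the submitters' processing notes. The kept nuclei summed to 5868921 (WT) and 9199078 (Q150X) UMIs. Rows with the same symbol were added, 33954 rows becoming 33916 symbols. Intronic counting, empty-droplet calling and strand settings are not given in the sources used here.

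The nucleus filters and gate are given above. The 3% cardiomyocyte threshold was set after looking at marker shares in both libraries; 27 WT and 124 Q150X nuclei lay between 2% and 4%. Nuclei with tied markers (110 and 229) or too few took no type (617 and 872 in all). Doublets were kept; removing those called by Scrublet was an alternative. Its own threshold called 4.88% of WT and 0.0154% of Q150X nuclei, and since it had not worked in Q150X the 336 nuclei with the highest scores were taken there. CPM is a gene's UMIs over all UMIs of the class or library, scaled to 1000000. Ratios carry exact conditional binomial intervals, those at the WT make-up and share ratios carry log-normal ones, shares Clopper-Pearson and levels Poisson ones, all at 95%. Molecules of 1 nucleus are not independent, so gene intervals are too narrow. A gene at 0 UMIs was set to a floor of 3 UMIs over the class. The scripts were tested on simulated data.

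Genes were named by 1 rule: the 8 highest and 8 lowest at the WT make-up and the 6 highest and 6 lowest in each type, ranked by the interval bound nearest 1, with at least 50 UMIs (20 in types with under 100 nuclei in a library) and at least the level of all other nuclei where higher; mitochondrial, ribosomal, haemoglobin, sex-linked, clone-named, rRNA-prone and own marker genes were left out. From a list, at most 2 genes from either end were named, with a few others, and Vegfa was given where counted; Mertk, the cell types of Rp1, Ush1c and Myo10, Mki67, Prkg1 elsewhere, the genes past the fold in several types and the Y-linked genes were singled out after their values were seen. Some results the rule names are not reported here. Members, lists and rules were chosen with earlier results of these data known. The alternatives were 1000 UMIs per nucleus, doublets removed, 3 markers in the gate, clusters (scanpy 1.11.5, 2000 variable genes, 30 components, 15 neighbours, Leiden resolution 1), thinning to 500 UMIs, rRNA-prone genes and Malat1 left out of totals, centring on the median gene, 50 UMIs per gene, equal weight per nucleus and, added after seeing the data, leaving out the richest nucleus.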

Additional observations from a re-analysis of the deposited data

Results flagged for a closer look

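The contrasts of Q150X with WT without injury and 3 days after infarction were both past the fold, in opposite directions, for 8 of the minor type shares and named genes; with 1 library a group, the difference was not tested. Further named genes, such as Uqcr11 at the WT make-up (3.73 and 0.740), had intervals on opposite sides of 1 without being past the fold in both contrasts. Pericytes were 2.71 times as frequent in Q150X as in WT without injury and 0.532 times after infarction, and endocardial nuclei 2.12 and 0.511 times. At the WT make-up Cox6a2 was at a ratio of 4.15 without injury and 0.709 after infarction, and Ikzf3 at 0.288 and 1.90. The shares of lymphocytes were not held fixed in that weighting. In pericytes the ratios were 8.67 and 0.473 for Cox6a2, 4.79 and 0.503 for Slc25a4, and 1.83 and 0.592 for Mdga2. In macrophages Actc1 was at 11.9 and 0.683.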

How the results depend on the processing

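No paired analysis was possible because each group has 1 library, and for the same reason no replicate could be left out. Setting ratios relative to the median gene gave 726 genes higher and 1124 lower in the plain sum, 351 and 280 at the WT make-up, and 50 lower in macrophages. With at least 1000 UMIs per nucleus the share ratio was 4.479 for endocardial nuclei and 6.151 for macrophages, that of lymphatic endothelial nuclei among nuclei other than cardiomyocytes turned to 0.993, and the genes past the fold were 11 higher and 9 lower in endocardial nuclei, 9 lower in lymphatic endothelial nuclei, 19 higher in macrophages and 45 higher in pericytes. With 3 markers in the gate 7 genes were higher in endocardial nuclei, and the share ratios were 5.143 for macrophages and 3.332 for pericytes. With clusters in place of the gate the pericyte share ratio was 2.273, and the higher and lower genes were 40 and 37 in endocardial nuclei, 25 and 44 in lymphatic endothelial nuclei, 62 higher and 58 lower in macrophages, and 34 and 53 in smooth muscle. With 50 UMIs per gene, which tests fewer genes, they were 11 and 10 in endocardial, 4 and 11 in lymphatic endothelial, 43 and 88 in pericyte and 8 and 4 in smooth muscle nuclei. The cause of the other shifts was not tested. Of 559 values of named genes under the alternatives, 522 stayed close to the reported one, 36 moved and 1 reversed: Nav2 in endocardial nuclei, at 1.43 without the richest nucleus. Without the richest nucleus of each library 54 of the 60 genes named in the minor types were past the fold. For higher genes on 1 or 2 WT UMIs this is a weak check. Leaving out the WT nucleus can raise their ratio, as for Cox6a2 in pericytes, from 8.67 to 16.8. For Copa, Mideas and Ccdc50 in macrophages no ratio could be given at 1000 UMIs, since WT then had 0 UMIs.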
